A study of Mus musculus with 87 samples.

Results

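This comparison sets livers taken 44 h after partial hepatectomy (X44) against livers taken 20 h after it (X20), both at Zeitgeber time (ZT) 22, where ZT0 is the start of the light phase. The 24 h between the groups keep the hour of the day, and with it the light and feeding phase, the same, so that the comparison asks what changed over a full day of liver regeneration. It uses 9 of the 80 RNA-Seq libraries analysed from the series, chosen by their labels alone: 3 X44 livers and 6 X20 livers, each from a different mouse. All were livers of C57BL/6 male mice 12 to 14 weeks old, kept on 12 h of light and 12 h of dark with food given only in the dark, and all had had 70% of the liver removed under isoflurane at ZT2. The controls used beside them were 3 livers taken 20 h after sham surgery, also at ZT22 (S20), and 9 livers from untreated mice at ZT2 (C0). No sham livers of 44 h were analysed here. The X20 livers were collected in 2 experimental periods by the study's methods, 3 in each, and the X44 livers in 1 of these 2. All S20 livers came from the other. The sources used here do not say which X20 replicates belong to which period. Differences between periods and between time points therefore cannot be told apart in full, and counts of a list are given against X20 replicates 1 to 3 and against replicates 4 to 6 where they differ by more than a few genes.

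After partial hepatectomy the remaining hepatocytes, which are quiescent in the adult, leave G0 and copy their DNA, and most of them then divide before other liver cells do. Passage through the cycle follows ordered waves of transcripts: D- and E-type cyclins and the genes of replication, many of them targets of E2F factors, come before the A- and B-type cyclins, the mitotic kinases and the spindle genes, many of them controlled by the DREAM and MuvB complexes and by FOXM1. During this time the liver still has to supply plasma proteins, glucose, bile acids and detoxification, and many of those genes follow a daily rhythm. A comparison at a fixed ZT takes that rhythm out of the contrast as far as its phase is kept. Because whole livers were measured, fewer cells of a type and less RNA per cell cannot be told apart.

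Of 15396 genes with a log2 RPKM above −1.5 in at least 1 library, 2472 (16.1%) were called, which here means a Benjamini-Hochberg adjusted p below 0.05 in limma and a change of more than 0.5 on the log2 scale. RPKM is the number of reads per kilobase of exon, scaled to the mapped reads of the library, and changes are differences of group means of log2(RPKM + 0.25), which understates those of low genes. Levels were higher in X44 for 1993 genes (12.9% of those tested) and lower for 479 (3.11%), or for 288 without X44 replicate 1. The rises were also the larger changes: 756 genes rose and 115 fell by more than 1 on the log2 scale, and 66 rose and 1, the fatty acid elongase gene Elovl3, fell by more than 4. Of the 66, 47 belonged to 6 lists of cell-cycle, replication and repair genes. In 2154 genes (14.0%) the change was called and the 3 X44 values lay outside the range of the 6 X20 values.

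The balance of rises and falls depended on the scaling. The median change over all tested genes was 0.10, and it became −0.16, a shift of 0.26, when every library was set to the same median. With that scaling 1061 genes (6.89%) were higher and 1665 (10.8%) lower, so that the share of rises among calls went from 80.6% to 38.9%. Centred on the median change of genes above 0, a choice made after seeing the data, the split was 1361 higher (8.84%) and 912 lower (5.92%). Median scaling lowered every change by the same amount, and 1061 of the 1993 rises were still called with it. The list counts below are those of the table as deposited, and the counts after median scaling stand beside them where they differ in more than a few genes. The shares of all genes to set beside any list count are 12.9% higher and 3.11% lower as deposited. After median scaling they are 6.89% and 10.8%.

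**Figure D1:**
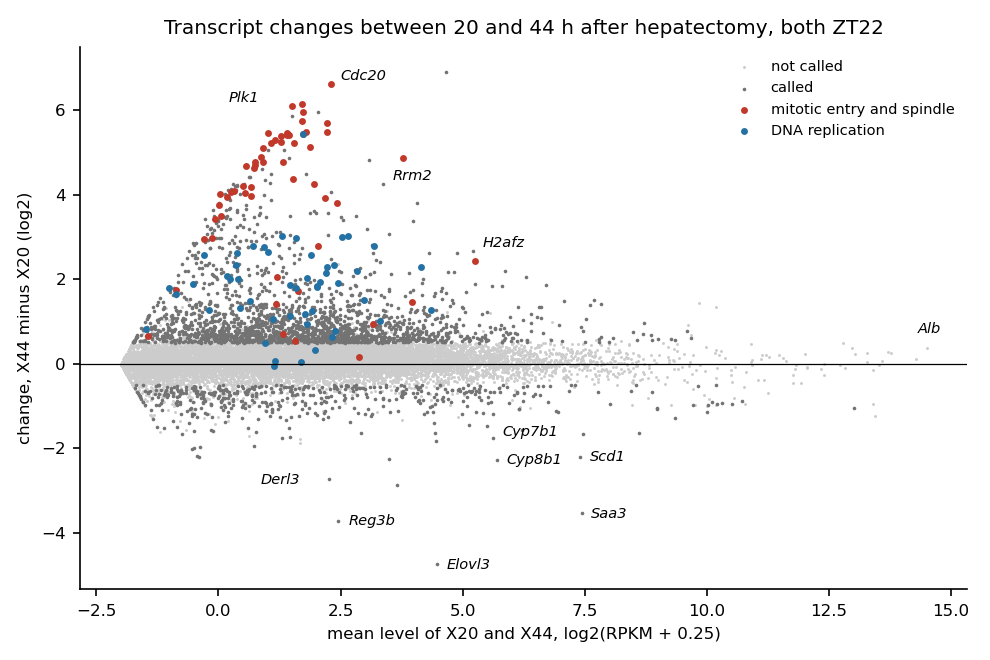
Change between X44 and X20 (vertical axis, log2) against the mean level of both groups (horizontal axis, log2 of RPKM + 0.25) for the 15396 genes tested. Dark grey points are called, red points are genes of mitotic entry and the spindle and blue points genes of DNA replication. D17H6S56E-5, which is on neither list, lies highest at 6.91, the highest red point is Cdc20 at 6.62, and Elovl3 at −4.75 lies lowest.

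Depth differed little between the groups. Estimated from the steps in low values, it was 25290000 to 28640000 reads in X44 and 20940000 to 30270000 reads in X20, and 12395 to 12577 genes of an X44 library and 11918 to 12346 of an X20 library passed the threshold. The share of summed RPKM in the 20 highest genes was 38.9 to 40.4% in X44 and 37.3 to 42.4% in X20. X20 replicates 4 to 6 differed from replicates 1 to 3 in 287 genes (1.86%). Against replicates 1 to 3 alone X44 differed in 1998 genes and against replicates 4 to 6 alone in 2994. Calls in the same direction against both sets numbered 1599, which is 80.03% of the first and 53.4% of the second, and no gene was called in opposite directions.

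Genes of mitotic entry and the spindle rose the most. Of 57 tested, 56 were higher and none lower in X44, with a median change of 4.37, and in each of the 56 that rose every X44 liver lay above every X20 liver. Over all genes tested, every X44 liver lay above every X20 liver in 21.3%. Cdc20 (chr4:118106000-118110000 in mm9, the build of the files), which activates the anaphase-promoting complex, was at 59.04, 45.2 and 43.1 RPKM in the X44 livers, against 0.0440 (lowest), 0.255 (median) and 0.543 (highest) RPKM in the X20 livers. Its X44 values were alike and far above all X20 values, at a log2 change of 6.62 ± 0.37 (SE, adjusted p = 6.88e-25). Ube2c (chr2:164595000-164604000), the ubiquitin-conjugating enzyme of the same complex, was at 33.2, 23.97 and 25.5 RPKM in X44 and at 0.0254 (lowest), 0.152 (median) and 0.279 (highest) RPKM in X20. Plk1 (chr7:129303000-129313000), the polo-like kinase of mitotic entry, was at 30.9, 20.9 and 19.6 RPKM in X44 against 0.0300 (lowest), 0.104 (median) and 0.195 (highest) RPKM in X20. Both were barely measured in X20 and lay without overlap, at changes of 6.14 ± 0.31 and 6.09 ± 0.28.

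The cyclins of mitosis and their kinase moved with them. Ccnb1, cyclin B1, was at 16.2, 12.8 and 10.999 RPKM in X44 and at 0 (lowest), 0.0490 (median) and 0.164 (highest) RPKM in X20, where 1 liver was listed at 0. Cdk1, the kinase it activates, was at 39.2, 30.7 and 24.6 RPKM in X44 and 0.203 (lowest), 0.463 (median) and 0.804 (highest) RPKM in X20. For Ccna2, cyclin A2, the X44 values were 28.7, 22.7 and 18.1 RPKM and the X20 values 0.0468 (lowest), 0.314 (median) and 0.503 (highest) RPKM. The changes of these genes were 5.46 ± 0.24, 5.47 ± 0.27 and 5.48 ± 0.28, and X44 replicate 1 was the highest of the 3 X44 livers in each. The same liver was highest for Foxm1, the transcription factor of the G2/M programme, which was at 12.9, 9.13 and 7.21 RPKM in X44 and at most 0.295 RPKM in X20 (change 4.76 ± 0.19). Sham livers at the same ZT had means of 0.0198 RPKM for Ccnb1 and 0.0198 RPKM for Foxm1 (n = 3), within or below the range of X20.

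The other largest rises were of the same kind with 1 exception. They were Pbk (5.96), a mitotic protein kinase, Ccnb2 (5.96), cyclin B2, Ckap2l (5.85), a spindle-associated protein, Mki67 (5.75), the Ki-67 antigen of cycling cells, and Cdca3 (5.70), a factor of mitotic entry. The exception by name is D17H6S56E-5, which had the largest rise of all at 6.91 ± 0.37. It was at 454, 237 and 199 RPKM in X44 and at 1.05 (lowest), 2.08 (median) and 3.76 (highest) RPKM in X20. Mki67 ranged from 16.1 to 33.96 RPKM in X44 and from 0.0163 to 0.635 RPKM in X20. Pttg1, securin, was the only tested member of the mitotic list that was not called: it was at 6.79 to 8.13 RPKM in X44 and 5.84 to 7.84 RPKM in X20, at a change of 0.16 ± 0.11 with a 95% confidence interval from −0.05 to 0.37. Ube2s, another ubiquitin-conjugating enzyme of the anaphase-promoting complex, had the highest mean level of the list and rose from 14.35 to 18.998 RPKM to 84.6 to 95.2 RPKM (2.43 ± 0.21).

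The kinetochore and cohesion list, genes that tie chromosomes to the spindle and sister chromatids to each other, behaved likewise. All 45 tested members were higher in X44, with a median change of 3.33 and a range from 0.64 to 5.45, against 12.9% of all genes. Nuf2 and Ndc80, subunits of the outer kinetochore complex that binds microtubules, were at 24.6, 15.8 and 12.9 RPKM and at 9.86, 6.62 and 5.08 RPKM in X44. In X20 they reached at most 0.317 and 0.195 RPKM. Esco2, which acetylates cohesin, rose by 4.87 ± 0.28 and Cdca5, sororin, by 4.35 ± 0.25. Rad21, a core cohesin subunit that non-dividing cells also use, was already at 9.94 to 13.9 RPKM in X20 and reached 30.1 to 50.05 RPKM in X44 (1.68 ± 0.12).

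**Figure D2:**
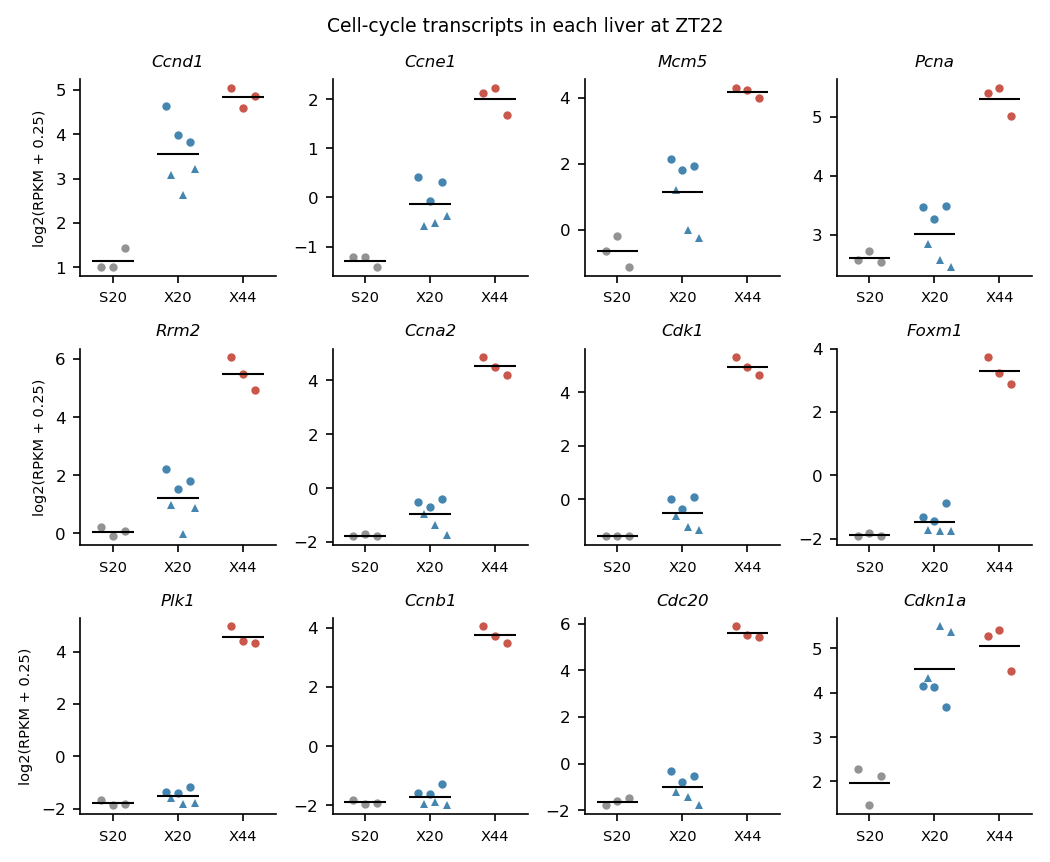
Level of 12 cell-cycle genes in each liver (vertical axes, log2 of RPKM + 0.25, 1 panel per gene) for sham livers at 20 h (S20, grey), X20 (blue, circles for replicates 1 to 3 and triangles for 4 to 6) and X44 (red); bars are group means. All but Ccnd1 and Cdkn1a show every X44 liver above every X20 liver.

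Promoter sequences are shown for the 4 largest rises with CHR letters in the window printed, so they were chosen for carrying them. Plk1 and Pbk have larger changes than the last 2 of the 4, and D17H6S56E-5 has a larger change than all 4. They were passed over by that rule. In the Plk1 window the letters are not among the 200 bases before the start. The capitals mark 2 short elements known from G2/M genes: the cell-cycle genes homology region (CHR, TTTGAA), which MuvB complexes bind, and the CCAAT box, which NF-Y binds. Sequences are RefSeq windows of the GRCm38.p6 build, a different build from the files, joined by gene symbol. Each run gives the 200 bases before the annotated start of the gene, 5′ to 3′ on the gene's strand, with both elements in capitals on either strand, so that a longer capital run holds adjoining or overlapping matches.
Cdc20 (chr4:118437344-118437543, minus strand): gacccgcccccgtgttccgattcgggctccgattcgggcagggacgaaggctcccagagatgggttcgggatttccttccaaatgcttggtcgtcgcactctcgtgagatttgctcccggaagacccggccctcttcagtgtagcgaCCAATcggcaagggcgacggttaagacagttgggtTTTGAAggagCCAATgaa
Ube2c (chr2:164769729-164769928, plus strand): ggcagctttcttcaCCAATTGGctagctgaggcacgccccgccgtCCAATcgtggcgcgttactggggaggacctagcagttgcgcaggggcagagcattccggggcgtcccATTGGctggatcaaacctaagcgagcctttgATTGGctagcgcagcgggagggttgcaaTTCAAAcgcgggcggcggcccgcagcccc
Ccnb2 (chr9:70421555-70421754, minus strand): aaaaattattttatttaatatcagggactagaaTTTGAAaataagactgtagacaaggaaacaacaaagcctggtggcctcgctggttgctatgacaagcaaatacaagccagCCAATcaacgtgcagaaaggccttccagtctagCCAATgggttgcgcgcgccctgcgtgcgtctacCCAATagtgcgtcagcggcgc
Ckap2l (chr2:129297213-129297412, minus strand): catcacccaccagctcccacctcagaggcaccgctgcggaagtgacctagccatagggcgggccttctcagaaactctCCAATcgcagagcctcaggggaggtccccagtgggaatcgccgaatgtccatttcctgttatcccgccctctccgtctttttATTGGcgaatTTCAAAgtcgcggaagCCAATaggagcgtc

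Counted over the windows from 250 bases before to 50 bases after the start, the CHR letters stood in 32 of 47 mitotic genes with a window (68.1%) and in 46.9% of 32 kinetochore and cohesion genes. Among the 9206 tested genes with a window, of 15095 symbols, the share was 12.6%, and over all 27025 windows it was 18.1%. A CCAAT box was found in 70.2% of the mitotic genes and 39.4% of tested genes. Replication genes had CHR letters in 17.1% of 41 windows, and cytochrome P450 genes, which were no cell-cycle list, in 35.7% of 42. A match is a description of the letters and does not show that a factor was bound in these livers.

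Genes of DNA replication rose in nearly all cases but by less. Of 50, 45 were higher and none lower, at a median change of 1.88. Mcm5 (chr8:77633400-77652300 in mm9), a subunit of the replicative MCM helicase, was at 19.2, 18.5 and 15.8 RPKM in X44. In X20 it was at 4.21, 3.26 and 3.59 RPKM in replicates 1 to 3 and 2.05, 0.746 and 0.587 RPKM in replicates 4 to 6. Every X44 value lay above every X20 value, and X20 replicates 4 to 6 were lower than replicates 1 to 3 by −1.66 on the log2 scale, which was called, so the rise of 3.03 ± 0.37 is a mean over unlike sets. Mcm6 had the same pattern, at 26.7, 24.6 and 20.4 RPKM in X44 and 1.17 to 6.31 RPKM in X20 (2.79 ± 0.35), and 15 of the 50 replication genes were called between the X20 sets. Against X20 replicates 1 to 3 alone, 44 replication genes were higher, and against replicates 4 to 6 alone 47 were. Pcna, the sliding clamp of DNA polymerases, was at 41.9, 44.4 and 32.01 RPKM in X44 and 5.18 (lowest), 8.16 (median) and 10.9 (highest) RPKM in X20, and with 5.83 ± 0.425 RPKM (SD, n = 3) in sham livers it was well measured before the rise of 2.28 ± 0.18.

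Other replication genes differed in how far they stood above their start. Top2a, topoisomerase II alpha, rose by 5.43 ± 0.28 and had the largest change of the list. Fen1, the flap endonuclease of lagging-strand synthesis, went from 1.34 to 2.27 to 13.6 to 20.9 RPKM (2.997 ± 0.25), and Chaf1a, a subunit of the chromatin assembly factor, rose by 3.03 ± 0.25. Cdc6, which loads the helicase onto origins, stayed low in both groups, at 1.24, 0.870 and 1.17 RPKM in X44 and 0.0236 (lowest), 0.1003 (median) and 0.307 (highest) RPKM in X20. Its change was 1.89 ± 0.22, with no overlap. Genes that supply deoxynucleotides rose in 9 of 15, in 7 against X20 replicates 1 to 3 alone and in 12 against replicates 4 to 6 alone, led by Rrm2, the cell-cycle-dependent subunit of ribonucleotide reductase, at 65.97, 44.4 and 30.1 RPKM in X44 and 0.739 (lowest), 2.17 (median) and 4.39 (highest) RPKM in X20 (4.25 ± 0.39). Rrm1 (2.81), Tk1 (2.61), thymidine kinase, and Tyms (2.57), thymidylate synthase, rose with it, and Paics of purine synthesis, the most abundant member, overlapped between groups at 62.7 to 66.7 and 33.5 to 68.3 RPKM (0.42; called without X20 replicate 1 or 3, at 0.52 and 0.52).

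E2F elements were more frequent than CHR letters in this list. The 2 windows printed were taken from a few named replication and nucleotide genes and were chosen for carrying E2F letters. Rrm2, with a larger change than either, was passed over by that rule. The capitals mark the letters TTCCCGC, the letters TTGGCGC or the letters TTCGCGC on either strand, overlapping matches being joined.
Mcm5 (chr8:75109309-75109508 in GRCm38.p6, plus strand): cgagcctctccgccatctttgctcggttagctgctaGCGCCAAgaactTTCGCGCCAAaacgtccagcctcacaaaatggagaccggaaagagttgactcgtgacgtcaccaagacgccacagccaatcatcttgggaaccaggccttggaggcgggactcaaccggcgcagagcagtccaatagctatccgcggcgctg
Mcm6 (chr1:128359706-128359905 in GRCm38.p6, minus strand): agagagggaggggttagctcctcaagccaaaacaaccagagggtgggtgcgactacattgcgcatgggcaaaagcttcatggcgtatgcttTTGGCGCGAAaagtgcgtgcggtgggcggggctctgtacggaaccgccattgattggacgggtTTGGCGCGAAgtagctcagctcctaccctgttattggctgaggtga
At least 1 of those letter runs stood in 24 of 41 replication windows (58.5%), in 60.7% of 28 repair and checkpoint windows, in 17.02% of the mitotic windows and in 14.4% of those of all tested genes.

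The G1 genes were less uniform. Of 30 cyclins, kinases and inhibitors of G1, 19 were higher and none lower. Ccne1, cyclin E1, which starts S phase with CDK2, was at 4.13, 4.401 and 2.94 RPKM in X44 and 0.416 (lowest), 0.612 (median) and 1.08 (highest) RPKM in X20 (2.15 ± 0.24), and Ccne2 rose by 1.91 ± 0.23. Ccnd1, cyclin D1, which carries mitogenic signals into G1, was at 32.5, 24.01 and 28.8 RPKM in X44 and in X20 at 24.7, 15.5 and 13.96 RPKM in replicates 1 to 3 and 8.27, 5.95 and 9.02 RPKM in replicates 4 to 6. The groups overlapped through X20 replicate 1. The change of 1.27 ± 0.37 (adjusted p = 0.00586) was 0.68 and not called against replicates 1 to 3 alone, and 1.85 and called against replicates 4 to 6 alone. Ccnd1 was already higher in X20 than in sham livers, by 2.42 on the log2 scale, and its S20 mean was 1.98 RPKM. Inhibitors rose too: Cdkn2c, p18, by 3.57 ± 0.16, Cdkn2d, p19, by 3.12 ± 0.21, and Cdkn3, a phosphatase of CDKs, by 5.06 ± 0.32. Cdkn1a, p21, was at 38.3, 42.3 and 22.01 RPKM in X44 and at 12.5 (lowest), 18.7 (median) and 44.7 (highest) RPKM in X20 and was not called (0.53 ± 0.66, adjusted p = 0.6245).

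Repair, checkpoint and chromatin genes followed the replication genes. In the repair and checkpoint list 31 of 36 were higher and none lower, at a median of 2.11. The count was 29 against X20 replicates 1 to 3 alone and 34 against replicates 4 to 6 alone. H2afx, the histone variant phosphorylated at DNA breaks, was at 61.7, 40.7 and 52.8 RPKM in X44 and 3.95 (lowest), 4.65 (median) and 5.57 (highest) RPKM in X20. Its change of 3.38 ± 0.23 came with no overlap, as did that of Fanci (3.10) of the Fanconi pathway. Of 24 p53 target genes 15 were higher. The largest rises among them, Ckap2 (5.42) and Gtse1 (4.48), are genes of the mitotic spindle and of G2, while Phlda3 (2.76), an inhibitor of Akt, and Tnfrsf10b (2.26), a death receptor, are not cell-cycle genes. Among 28 histone variants, linkers and chromatin factors 22 were higher, with Hmgb2 (4.06), a high-mobility-group protein, and Asf1b (3.03), a histone chaperone, beside Uhrf1 (3.07), which keeps DNA methylation through replication. Of 31 tubulin, actin and cytoskeletal genes 16 were higher, 14 against X20 replicates 1 to 3 alone and 18 against replicates 4 to 6 alone. Stmn1, stathmin, which destabilizes microtubules, went from 1.63 to 3.83 to 56.8 to 91.7 RPKM (4.87 ± 0.28), Tubb6 rose by 3.81 ± 0.35, Tubb5 by 2.20 ± 0.25 and Lmnb1, lamin B1, by 2.75 ± 0.18. Actb, beta-actin, overlapped between the groups (0.43, adjusted p = 0.0790) and was called without X20 replicate 1 or 2, at 0.55 and 0.53.

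**Figure D3:**
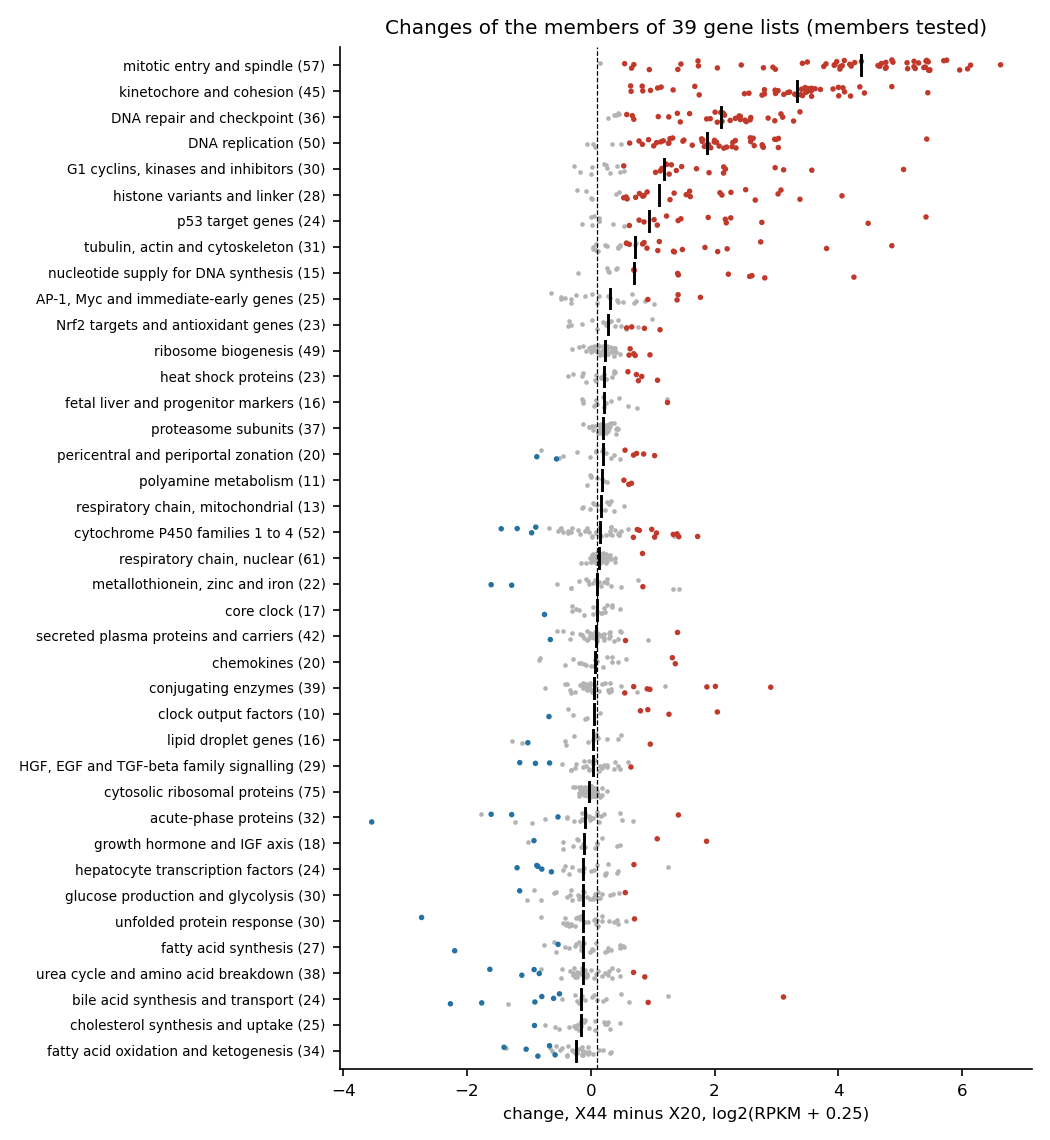
Change between X44 and X20 (horizontal axis, log2) for each tested member of the 39 pathway lists (vertical axis, number tested in brackets), sorted by the list's median. Red points were called higher, blue points called lower and grey points not called; black ticks are medians and the dashed line is the median of all genes at 0.10. Mitotic genes stand at the top with a median of 4.37.

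Falls were fewer than rises. Elovl3 (chr19:46206400-46210200 in mm9), which elongates very long-chain fatty acids, was at 2.80, 6.25 and 3.78 RPKM in X44 and at 51.01 (lowest), 122 (median) and 187 (highest) RPKM in X20, a change of −4.75 ± 0.44 (adjusted p = 2.55e-14) with every X44 value below every X20 value, as in 5.70% of all genes. Its S20 mean was 78.9 ± 36.3 RPKM (SD, n = 3). In the list of bile acid synthesis and transport 2 of 24 rose and 6 fell, against 3.11% of all genes for falls. Without X44 replicate 3, 3 fell. The counts were 1 rise and 6 falls against X20 replicates 1 to 3 alone. They were 5 rises and 4 falls against replicates 4 to 6 alone. Cyp7b1, an oxysterol hydroxylase of the alternative pathway, was at 25.6, 29.8 and 23.9 RPKM in X44 and 51.95 (lowest), 87.2 (median) and 172 (highest) RPKM in X20 (−1.76 ± 0.41). Cyp8b1, the sterol 12-alpha-hydroxylase that sets the share of cholic acid, was at 27.6, 52.8 and 8.79 RPKM in X44 and 53.98 (lowest), 105 (median) and 207 (highest) RPKM in X20. Its fall of −2.27 ± 0.55 was −1.57 and not called without X44 replicate 3, the lowest liver. Cyp7a1, the rate-limiting enzyme of bile acid synthesis, varied widely within X20, from 8.56 to 73.6 RPKM, and was not called (−1.34 ± 0.60, adjusted p = 0.0909) except without X20 replicate 6 (−1.60). In the opposite direction, Ostb, a subunit of the basolateral bile acid exporter, rose from 0.0677 to 1.57 to 4.34 to 8.98 RPKM (3.11 ± 0.55).

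After median scaling 12 of 34 genes of fatty acid oxidation and ketogenesis fell, against 10.8% of all genes. As deposited 5 fell and none rose, against 3.11% of all genes for falls. The falls were 2 without X44 replicate 3, 3 against X20 replicates 1 to 3 alone and 5 against replicates 4 to 6 alone. Etfdh, which passes electrons from beta-oxidation to the respiratory chain, was at 25.9, 31.4 and 22.6 RPKM in X44 and 35.3 (lowest), 41.7 (median) and 51.2 (highest) RPKM in X20 (−0.67 ± 0.12), all X44 values below the X20 range. Cpt1a, the gate of mitochondrial fatty acid import, overlapped between the groups (−0.12, adjusted p = 0.749). Ppara, the nuclear receptor that drives such genes, was at 8.38, 10.53 and 6.04 RPKM in X44 and 13.2 (lowest), 14.9 (median) and 17.3 (highest) RPKM in X20. Its call (−0.85 ± 0.31, adjusted p = 0.0329) was lost, at −0.88, −0.65 and −0.81, without X44 replicate 1, X44 replicate 3 or X20 replicate 2. Angptl4, a target of that receptor that inhibits lipoprotein lipase, was at 12.6, 24.96 and 6.76 RPKM in X44 against 19.2 (lowest), 33.001 (median) and 63.3 (highest) RPKM, and its change of −1.401 was −0.95 and not called without X44 replicate 3.

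In fatty acid synthesis 2 of 27 genes fell, Scd1 and Dgat2, beside 3.11% of all genes. Scd1, the stearoyl-CoA desaturase, was at 53.9, 40.9 and 217 RPKM in X44 and 216 (lowest), 343 (median) and 645 (highest) RPKM in X20. X44 replicate 3 stood about level with the lowest X20 liver and the other X44 livers far below, at a change of −2.20 ± 0.50 (adjusted p = 0.000434). Fasn, fatty acid synthase, ranged from 13.99 to 31.9 RPKM in X44 and from 11.6 to 32.2 RPKM in X20 and was not called (−0.01 ± 0.38). Dgat2, of triglyceride synthesis, changed by −0.53 ± 0.16, and its call was lost without X44 replicate 1 (−0.45) and without X20 replicate 6 (−0.43). Of 25 genes of cholesterol synthesis and uptake 1, Hsd17b7, fell, near the 3.11% of all genes. Its change was −0.92, and it was not called without X44 replicate 3, at −0.86. Sqle, squalene epoxidase, overlapped between the groups at a change of −0.35.

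The rest of the 12 largest falls were of unlike kinds. Serpina4-ps1, a serpin pseudogene, went from 15.9 to 58.4 RPKM in X20 to 2.55 to 7.40 RPKM in X44 (−2.86 ± 0.71), and Gm2788 from 19.97 to 31.2 to 2.85 to 6.72 RPKM (−2.26 ± 0.30). Serpina4-ps1 belongs to a family of near-identical copies, so its level is uncertain. Mir1898, Snord14a, AL672259.1 and CT025701.1 are short noncoding genes, each listed at 0 in 2 of the 3 X44 livers and at no more than 4.66 RPKM in any X20 liver, which for such lengths is a handful of reads, so no fold change is given for them.

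Falls of single genes stood out in amino acid metabolism. Bhmt, which remethylates homocysteine with betaine, was at 172, 276 and 226 RPKM in X44 and 474 (lowest), 748 (median) and 866 (highest) RPKM in X20 (−1.63 ± 0.34, no overlap). Tdo2, which opens tryptophan breakdown, fell from 121 to 238 to 70.7 to 96.6 RPKM (−1.11 ± 0.22), and Csad, of taurine synthesis, from 18.3 to 72.1 to 7.796 to 14.9 RPKM (−1.83 ± 0.35). Over the 38 urea cycle and amino acid genes 2 rose, Nags of them by 0.87 ± 0.15, and 4 fell. Of all genes 12.9% rose and 3.11% fell. After median scaling 9 fell, against 10.8% of all genes. Among 24 hepatocyte transcription factors 1 rose and 5 fell, against 3.11% of all genes for falls. The falls were 3 without X44 replicate 1, 2 or 3 and against either X20 set alone. They were 8 after median scaling, against 10.8% of all genes. Nr1i3, the constitutive androstane receptor, was at 20.9, 26.6 and 15.7 RPKM in X44 and 39.2 (lowest), 45.6 (median) and 58.8 (highest) RPKM in X20 (−1.19 ± 0.33), and Nr1h4, the bile acid receptor FXR, at 26.5, 26.97 and 23.01 and 37.7 (lowest), 43.7 (median) and 52.5 (highest) RPKM (−0.79 ± 0.19). Both lay below X20 in every X44 liver, whereas Hnf4a, the most abundant of the list, overlapped (0.24, adjusted p = 0.346).

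After median scaling 0 of 30 genes of glucose production and glycolysis rose and 9 fell, against 6.89% and 10.8% of all genes. As deposited 1 rose and 1 fell, against 12.9% and 3.11%. Without X20 replicate 6, and against X20 replicates 1 to 3 alone, 3 fell. Ppp1r3b, a glycogen-targeting subunit of protein phosphatase 1, fell from 37.7 to 66.2 to 21.02 to 29.5 RPKM (−1.15 ± 0.31). Pck1 and G6pc, of glucose production, had changes of −0.80 ± 0.35 and −1.04 ± 0.45 at adjusted p = 0.0857 and 0.0831, and both were called lower after median scaling, at −1.06 and −1.297, and without X20 replicate 6, at −0.94 and −1.28, G6pc also without X44 replicate 3 (−1.41). For G6pc 2 of the 3 X44 livers lay below every X20 liver and the other, at 96.2 RPKM, within their range. In the growth hormone and IGF list Igfbp2, an IGF-binding protein of fetal and regenerating liver, rose from 38.03 to 95.4 to 164 to 281 RPKM (1.87 ± 0.25), Igfbp3 fell (−0.92; −0.66 and not called against X20 replicates 1 to 3 alone), and Igf1, Igfbp1 and Socs2 were not called (−0.13, −1.013 and −0.29). Gdf15, a stress hormone of the TGF-beta family, rose from 0.232 to 1.497 to 2.44 to 5.26 RPKM (2.17 ± 0.39), and Fgf21 was not called (−1.36, adjusted p = 0.112).

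**Figure D4:**
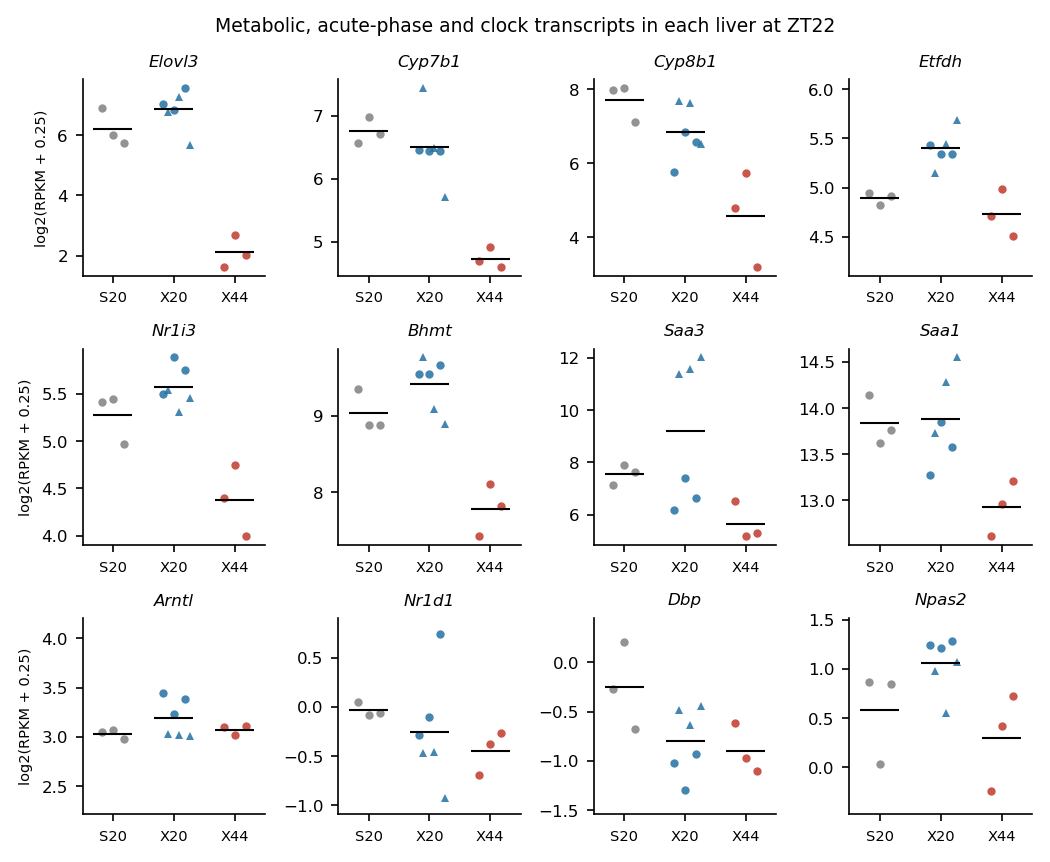
Level of 12 metabolic, acute-phase and clock genes in each liver (vertical axes, log2 of RPKM + 0.25, 1 panel per gene), with groups, symbols and bars as in the plot of cell-cycle genes. Elovl3, Cyp7b1, Cyp8b1, Etfdh, Nr1i3, Bhmt and Saa1 lie lower in every X44 liver than in any X20 liver, Saa3 separates the circles from the triangles in X20, and Arntl, Nr1d1 and Dbp overlap.

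The acute-phase response was still present at 44 h, and its differences from 20 h rested on few genes and on the X20 sets. Of 32 acute-phase genes 1 rose and 4 fell, against 3.11% of all genes for falls. Against X20 replicates 1 to 3 alone 0 fell and against replicates 4 to 6 alone 6, and 2 fell without X44 replicate 1 or 3 or X20 replicate 4, 5 or 6. Saa3, an inducible serum amyloid A, was at 91.9, 35.7 and 39.04 RPKM in X44 and in X20 at 72.3, 171 and 100.0 RPKM in replicates 1 to 3 and 2659, 3055 and 4149 RPKM in replicates 4 to 6. X20 replicates 4 to 6 stood far above all other livers. The change of −3.54 ± 0.85 was −1.08 and not called against replicates 1 to 3 alone. Saa1 and Saa2, the main hepatic serum amyloids, were lower in every X44 liver than in any X20 liver, at 6241, 7960.0 and 9473 and 5708, 7111 and 9296 RPKM against ranges of 9926 to 23964 and 11519 to 27142 RPKM. Their changes of −0.95 ± 0.63 and −1.23 ± 0.68 were not called in the model of all groups (adjusted p = 0.292 and 0.188), whereas with X20 and X44 libraries alone Saa2 was, at −1.23. They are near-identical paralogs, and multi-mapped reads were divided among positions, so their separate values are uncertain. C0 livers had mean levels of 121 and 37.02 RPKM. Reg3b, a secreted lectin induced in inflammation, was at 2.16, 1.02 and 0.884 RPKM in X44 and in X20 at 4.62, 12.2 and 6.73 RPKM in replicates 1 to 3 and 17.3, 43.2 and 191 RPKM in replicates 4 to 6 (−3.72 ± 0.73), with the X20 sets themselves called apart by 2.81.

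Other members moved in both directions. Hamp, hepcidin, the hormone of iron supply, was at 280.4, 602 and 429.9 RPKM in X44 and 423 (lowest), 1133 (median) and 2113 (highest) RPKM in X20, and its call (−1.28 ± 0.45, adjusted p = 0.0284) was lost without X44 replicate 1 or 3 or X20 replicate 4, 5 or 6, at −0.99, −1.299, −1.16, −1.19 and −1.06. Lcn2 and Orm2 were not called, at −0.74 and 0.68. The metallothioneins Mt1 and Mt2 had X44 levels of 1467, 1723 and 1326 and 1868, 2215 and 1512 RPKM against X20 ranges of 185 to 1869 and 273 to 2005 RPKM. They varied widely within X20, and neither was called (adjusted p = 0.0893 and 0.195), except Mt1 without X20 replicate 6 (1.78). Among 42 secreted plasma proteins 2 rose (1 against X20 replicates 1 to 3 alone, 5 against replicates 4 to 6 alone and 4 without X44 replicate 1 or 2), Mbl2, a mannose-binding lectin, from 62.1 to 182 to 274 to 366 RPKM (1.402 ± 0.25) and Trf, transferrin (0.56; 0.40 and not called without X44 replicate 3). Apoa5, an apolipoprotein that lowers triglycerides, fell (−0.65; −0.54 and not called without X44 replicate 1). Alb, albumin, was at 26585, 20510.1 and 34136 RPKM in X44 and 17468 (lowest), 20925 (median) and 23873 (highest) RPKM in X20 (0.37 ± 0.17, adjusted p = 0.112). Its level was not called different, and that call was gained against X20 replicates 4 to 6 alone (0.56) and without X44 replicate 2 (0.56). Derl3, of endoplasmic reticulum quality control, fell from 6.13 to 25.6 to 1.43 to 1.77 RPKM (−2.73 ± 0.78). Among 30 genes of the unfolded protein response it was the only fall called, and 1 rose. In 9 of the 30 every X44 liver lay below every X20 liver, against 5.70% of all genes. After median scaling 7 fell and 0 rose, against 10.8% and 6.89% of all genes.

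Core clock genes, which set the daily rhythm of transcription, gave 1 call between the 2 times. Of 17 none rose and 1 fell, beside 12.9% and 3.11% of all genes, at a median change of 0.10. Arntl (BMAL1), an activator of the clock, was at 8.32, 7.84 and 8.36 RPKM in X44 and 7.79 (lowest), 8.53 (median) and 10.7 (highest) RPKM in X20, at a change of −0.11 ± 0.20 with a 95% confidence interval from −0.50 to 0.28. Nr1d1 (REV-ERBa), a repressor, was at 0.368, 0.518 and 0.581 and 0.276 (lowest), 0.522 (median) and 1.42 (highest) RPKM, and its interval ran from −1.27 to 0.88. For Per2 and Dbp the changes were 0.18 ± 0.28 and −0.10 ± 0.33. The fall was that of Npas2, a paralog of Clock, at 0.596, 1.09 and 1.402 RPKM in X44 and 1.22 (lowest), 1.955 (median) and 2.18 (highest) RPKM in X20 (−0.76 ± 0.23, adjusted p = 0.00921), which was −0.48 and not called without X44 replicate 1. Nfil3, another output repressor, was not called (−0.29), except after median scaling (−0.55) and without X44 replicate 3 (−0.66).

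Among clock output genes 4 of 10 rose and 1 fell, beside 12.9% and 3.11% of all genes. Against X20 replicates 1 to 3 alone 2 rose, and also 2 without X44 replicate 1. The fall was that of Hlf, a transcription factor of clock output, from 5.49 to 7.89 to 3.49 to 4.83 RPKM (−0.67 ± 0.22), and it was not called against X20 replicates 1 to 3 alone or 4 to 6 alone (−0.69 and −0.66), or without X44 replicate 3 (−0.56). Wee1, a clock-controlled kinase that inhibits CDK1, was at 6.28, 3.53 and 3.86 RPKM in X44 and 0.323 (lowest), 0.918 (median) and 1.46 (highest) RPKM in X20 (2.05 ± 0.28). Tspan4, a tetraspanin, rose from 19.95 to 27.2 to 41.6 to 46.1 RPKM (0.92 ± 0.17). Both lay above X20 in every X44 liver. The calls of Usp2 (1.26), a deubiquitinase, and Lonrf3 (0.80) were lost without X44 replicate 1, at 1.02 and 0.62, and for Usp2 also without X20 replicate 5, at 1.15.

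The detoxification genes gave counts that depended on the X20 set. In the cytochrome P450 families 1 to 4 10 of 52 rose and 4 fell, beside 12.9% and 3.11% of all genes. Against X20 replicates 1 to 3 alone 1 rose and 2 fell, and against replicates 4 to 6 alone 19 rose and 4 fell. After median scaling 6 rose and 11 fell, beside 6.89% and 10.8% of all genes. The rises were 5 without X44 replicate 3 and 6 without X20 replicate 5. Cyp2a5, a coumarin hydroxylase, was at 59.1, 36.8 and 35.1 RPKM in X44 and 3.88 (lowest), 12.9 (median) and 40.6 (highest) RPKM in X20 (1.73 ± 0.46), and Cyp2e1, the ethanol-oxidizing enzyme and most abundant member, was not called (−0.44; called lower after median scaling, at −0.70, and without X20 replicate 1, at −0.54). Cyp3a11, the main CYP3A enzyme, overlapped between the groups, at 1076, 655 and 1507 and 338 (lowest), 621 (median) and 1061 (highest) RPKM, and its rise of 0.79 was 0.50 and not called without X44 replicate 3. Conjugating enzymes rose in 7 of 39, in 3 against replicates 1 to 3 alone and in 11 against replicates 4 to 6 alone, beside 12.9% of all genes. After median scaling 4 rose and 5 fell, beside 6.89% and 10.8% of all genes. Gsta1, a glutathione transferase, went from 0.0691 to 0.912 to 2.92 to 6.63 RPKM (2.91 ± 0.65), and Sult1a1, a phenol sulfotransferase, from 211 to 471 to 538 to 669.5 RPKM (0.96 ± 0.18). Among Nrf2 targets 4 of 23 rose, a share near the 12.9% of all genes, and 3 and 7 rose against the respective X20 sets. After median scaling 2 rose and 2 fell, beside 6.89% and 10.8% of all genes. Named members were Txnrd1, thioredoxin reductase, which rose by 0.87 ± 0.14, and Nqo1, a quinone reductase, by 1.12 ± 0.25.

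Housekeeping lists were not used for scaling, and their median changes were small. None of 75 cytosolic ribosomal protein genes was called, at a median change of −0.02 and a range from −0.29 to 0.26, and 2 were called lower after median scaling, at a median of −0.28. None of 37 proteasome and 13 mitochondrially encoded respiratory genes was called, at median changes of 0.20 and 0.17. Ribosome biogenesis had 5 rises and no fall in 49, beside 12.9% and 3.11% of all genes. Nop58, a core protein of small nucleolar particles, rose by 0.96 ± 0.20. After median scaling the list had 1 rise and 1 fall, beside 6.89% and 10.8% of all genes. As deposited its rises were 4 against X20 replicates 1 to 3 alone, 10 against replicates 4 to 6 alone and 8 without X44 replicate 3. Among immediate-early genes 4 of 25 rose, near the 12.9% of all genes. With median scaling 3 rose and 3 fell, beside 6.89% and 10.8% of all genes. Klf6 rose from 1.12 to 2.58 to 5.80 to 7.74 RPKM (1.77 ± 0.27), while Myc, Jun and Atf3 were not called (−0.49, 0.70 and 0.73).

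Markers of other liver cells were mostly level. Among the lists that mark cell types, hepatocyte secretory genes were the most abundant in all 9 libraries, as the label liver requires. The 42 plasma protein genes summed to 68135 to 83276 RPKM in X44 and 53392 to 69980.2 RPKM in X20. No marker was called among 22 of Kupffer cells, 11 of neutrophils, 7 of B cells, 6 of T and NK cells, 23 of endothelial cells and 11 of cholangiocytes. The summed Kupffer markers were at 85.6 to 109 RPKM in X44 and 47.04 to 131 RPKM in X20. Stellate cell and matrix genes rose in 7 of 26, beside 12.9% of all genes. With median scaling 3 rose and 2 fell, beside 6.89% and 10.8% of all genes. As deposited the rises were 0 without X44 replicate 1 and 2 without X44 replicate 2. Against X20 replicates 1 to 3 alone 1 rose and 1 fell, and against replicates 4 to 6 alone 9 rose and 1 fell. Col1a1, a fibrillar collagen, was at 5.73, 8.25 and 2.29 RPKM in X44 and 1.17 (lowest), 1.74 (median) and 2.13 (highest) RPKM in X20, at a change of 1.38 that was 1.26 and not called without X44 replicate 1 and 1.004 and not called without X44 replicate 2. Summed, the stellate list was at 447 to 491 RPKM in X44 and 515 to 648 RPKM in X20. Erythroid genes had 4 rises, all globins, and 1 fall, and none of these calls was made without X44 replicate 1. Without X44 replicate 3 no erythroid gene rose. Their sum was 45.9 to 92.2 RPKM in X44 and 18.2 to 66.9 RPKM in X20. Of mesothelial and adipose markers 2 of 6 rose, at sums of 52.1 to 70.9 and 10.002 to 125 RPKM. Of 17 pancreas and 12 muscle markers 11 and 8 were listed at 0 in all 9 libraries. The part of these markers in the changes of other genes was not tested.

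Other pairs of groups 24 h apart at a fixed ZT placed this interval in the course. The earlier pair is X28 less X4, at ZT6, and the later pair X72 less X48, at ZT2, with no library shared with X44 less X20. By the study's methods the X28, X48 and X72 livers share the experimental period of X44, while X4 livers were collected in both periods of X20. The X4 livers analysed were replicates 4 to 6, whose period is not stated. The earlier pair may therefore cross periods, which was not tested. The difference between X44 less X20 and X28 less X4 was called in 3854 genes (25.0%), and that to X72 less X48 in 3432 (22.3%). Of the 57 mitotic genes 52 had a more positive change in X44 less X20 than in the earlier pair (11.2% of all genes), and all 57 than in the later (17.8%). Their median change was 1.46 from 4 to 28 h, 4.37 from 20 to 44 h and −0.95 from 48 to 72 h. Replication genes stood out less against the earlier pair: 25 of 50 had a more positive change than from 4 to 28 h and 46 than from 48 to 72 h. Plk1 changed by 2.37, 6.09 and −1.07 in the 3 pairs, and Mcm5 by 2.71, 3.03 and −0.83. For Plk1 both differences were called, and for Mcm5 that to the later pair was, at 3.86, but not that to the earlier, at 0.32.

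Genes of fatty acid synthesis differed from the later pair. Scd1 changed by −2.20 from 20 to 44 h and by 3.38 from 48 to 72 h, a difference of −5.58, and Fasn by −0.01 and 2.43, a difference of −2.44. Both differences were called. Of 27 fatty acid synthesis genes 15 had a more negative change from 20 to 44 h than from 48 to 72 h, against 4.48% of all genes, and 6 than from 4 to 28 h, against 13.9%. In 2 other lipid lists the counts were larger against the earlier pair, as were the shares of all genes given above. In cholesterol synthesis and uptake 5 of 25 had a more negative change than in the later pair and 13 than in the earlier, and in fatty acid oxidation and ketogenesis 4 and 11 of 34. For Arntl the change from 4 to 28 h was −1.52 and its difference of 1.41 was called, whereas against the later pair it was −0.05 and not called.

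Levels over C0 give the course of the lists, as a description without a test. The median replication gene stood at 0.35 above C0 on the log2 scale at 20 h, 2.37 at 36 h, 2.25 at 44 h and 1.04 at 72 h. For the mitotic list the medians were 0.08, 3.02, 4.67 and 3.54, with 4.54 at 48 h. Replication genes were thus highest at 36 h and mitotic genes at 44 h among the times plotted, and in sham livers at 20 h both medians were below C0, at −0.08 and −0.17. The time points differ in ZT, which moves clock-controlled genes, and the library numbers ran from 3 to 6 a group.

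**Figure D5:**
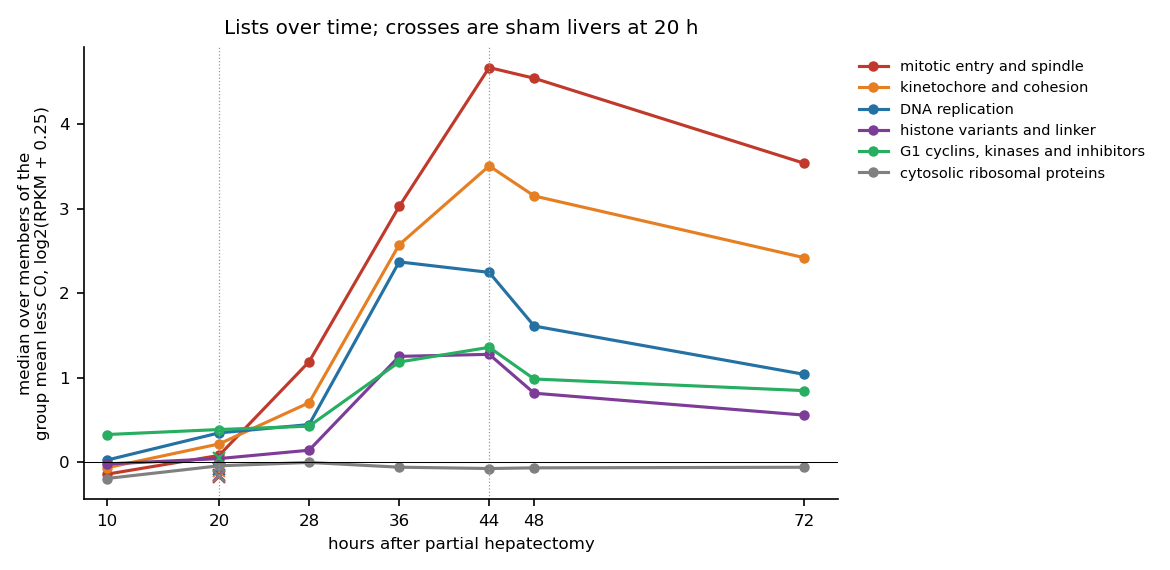
Median over the members of 6 lists of the group mean less C0 (vertical axis, log2 of RPKM + 0.25) against hours after partial hepatectomy (horizontal axis); crosses are sham livers at 20 h and dotted lines mark 20 and 44 h. The mitotic list rises from 0.08 at 20 h to 4.67 at 44 h, and the ribosomal protein list stays near 0.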

How the data were processed

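Poly(A) RNA of single mouse livers was sequenced by the authors with strand-specific libraries and 100-nt single-end reads. By their methods and processing notes, reads were mapped to mm9 with TopHat2 2.0.13 and Bowtie2, handled with SAMtools 0.1.19 and counted per Ensembl gene with featureCounts by strand, a multi-mapped read counting as a fraction at each position. The authors deposited log2 RPKM values, with unread genes set at −14.29. Of 84 value columns 80 matched labelled samples in 19 groups, and the other 4 were not used. A further 7 labelled samples, X4 livers among them, had no column of values. The counts themselves were not analysed here.

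Values were set back to RPKM and tested as log2(RPKM + 0.25) with limma 3.58.1 (R 4.3.3, trend on the mean level), 1 coefficient per group, over genes above log2 RPKM −1.5 in at least 1 library. The Benjamini-Hochberg adjustment ran over all 15396 genes. Calls needed both an adjusted p under 0.05 and a difference of over 0.5, and the fit was tested on simulated data. The detection and fold thresholds are the study's. Depth was backed out of the steps in low values, to about 18.2 reads at the threshold for a transcript of 2 kb. No spike-in fixed the scale. Named genes are the 12 largest rises and falls without overlap and with a mean log2 RPKM above 0 in 1 group, a set of 60 key genes, and up to 4 called members and the most abundant member of each list. Members, lists and key genes were chosen with earlier results of these data known. The 3 lists under the other observations, with the genes named from them, and Pttg1 and Hlf were chosen after values were seen. Some genes of that rule are not reported here. Alternatives were other pseudocounts, filters, scalings, variance models, X20 sets, a fit of the 9 libraries alone, a replicate block and leaving out each library.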

Additional observations from a re-analysis of the deposited data

Results flagged for a closer look

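The change from 20 to 44 h differed from that from 4 to 28 h in 3854 genes and from that from 48 to 72 h in 3432 genes (limma contrasts of contrasts, Benjamini-Hochberg). Among genes named in the report, the difference to the earlier pair was 3.71 on the log2 scale for Plk1 and 1.41 for Arntl. The difference to the later pair was 7.16 for Plk1, 3.86 for Mcm5, −5.58 for Scd1 and −2.44 for Fasn.

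Over the named genes 1 X20 liver stood far from the other 5, by Dixon's ratio of gap to range, in 4 of 138, and chance gives about 1 in 20. The lowest X20 liver was at 26.5 RPKM for Cyp4a12a (replicate 2) and at 37.7 RPKM for Ppp1r3b (replicate 5), where the others lay at 61.8 to 71.9 RPKM and at 60.3 to 66.2 RPKM. The highest was at 171 RPKM for Dgat2 (replicate 6) and at 3.69 RPKM for Myc (replicate 3), where the others lay at 104 to 125 RPKM and at 1.17 to 1.80 RPKM.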

How the results depend on the processing

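No named gene changed direction while called. The 2472 genes called were 1873 to 2609 on leaving out each library in turn, the 1993 rises 1585 to 2202 and the 479 falls 288 to 484, the lowest counts coming without X44 replicate 1. The differences to the earlier and later pairs were called in 3293 to 3868 and 2843 to 3532 genes. Falls numbered 304 with a pseudocount of 1. Scaled to the same median, 1061 genes rose and 1665 fell, and centred on the median change, an alternative added after seeing the data, 912 fell. At the study's adjusted p of 1e-07, 667 were called, 661 higher and 6 lower, and the differences to the other pairs were called in 301 and 622. The cause was not tested. Of 138 named genes 54 had a call that changed under at least 1 alternative, and none reversed.

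The replicate numbers are shared by X20 and X44, but the labels do not say that a number marks a shared litter, batch or day. Deviations of same-numbered livers correlated at 0.10, 0.03 and 0.06 for numbers 1, 2 and 3, each liver correlating best with its own number. The libraries were still treated as unpaired, because no label states a pairing. With the replicate block, on X20 and X44 libraries only, 1449 genes were called, 1139 higher and 310 lower. Without the block 2286 were called in the same libraries. With it the calls of 37 of 138 named genes were weaker and those of 4 stronger. X20 replicates 4 to 6 have no partner in the block.

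With 3 X44 livers of 1 experimental period, small changes were not detectable. That period also held 3 X20 livers, but which replicates they were is not stated. Effects of period and of time were therefore not separated. Depth limits genes under about 1 RPKM.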

Other observations

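Interferon-stimulated genes, from a list written after values were seen and so without a test of its own, lay lower at 44 h. Of 28, 11 fell and 1 rose, at a median change of −0.57, against 3.11% of all genes for falls. After median scaling 19 fell, against 10.8% of all genes. Ifit1, an antiviral RNA-binding protein and 1 of the 12 largest falls, was at 0.328, 0.653 and 0.907 RPKM in X44 and 1.54 (lowest), 3.21 (median) and 5.59 (highest) RPKM in X20 (−1.956 ± 0.32), without overlap. Irf9, a subunit of the factor that type I interferon activates, fell from 4.38 to 7.13 to 3.39 to 4.31 RPKM (−0.61 ± 0.14), and Dhx58, an RNA sensor of the RIG-I family, from 2.78 to 5.13 to 1.73 to 2.24 RPKM (−0.92 ± 0.21). Isg15, a ubiquitin-like modifier, overlapped between the groups at the edge, with an X44 range of 3.69 to 6.53 RPKM and an X20 range of 6.35 to 20.1 RPKM (−1.18 ± 0.24). Ifit2 rose (0.73 ± 0.21), a call that median scaling removed (0.47). Against X20 replicates 1 to 3 alone 14 of the list fell, and against replicates 4 to 6 alone 8 did.

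Of 20 genes whose liver levels are known to be higher in male than in female mice, 7 fell and 1 rose. Of all genes 3.11% fell and 12.9% rose. After median scaling 13 of the 20 fell and 1 rose, against 10.8% and 6.89% of all genes. The 20 were also listed after values were seen, so without a test of their own. Besides Elovl3, Cyp7b1 and Serpina4-ps1, which the report describes, they held Cyp2d9, a steroid hydroxylase, which went from 270.0 to 452 to 168 to 198 RPKM (−0.95 ± 0.20), and Cyp4a12a, a fatty acid hydroxylase, from 26.5 to 71.9 to 17.9 to 25.4 RPKM (−1.45 ± 0.43; −1.16 and not called against X20 replicates 1 to 3 alone). Susd4, a complement regulator, rose (0.99 ± 0.26). Genes higher in female liver rose in 5 of 21 and fell in 1, beside 12.9% of all genes for rises, and the rises were 2 against X20 replicates 1 to 3 alone, 3 without X44 replicate 1 and 2 without X44 replicate 3. Cux2, a female-biased liver repressor, was at 0.255, 0.273 and 0.770 RPKM in X44 and at most 0.105 RPKM in X20 (1.07 ± 0.23), low levels at which a few reads count. Summed over the male-biased list, X44 livers had 7693 to 11066 RPKM, X20 livers 8853 to 16104 RPKM and sham livers at 20 h 23682 to 24906 RPKM.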
